A study of Mus musculus with 17 samples.

Results

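Chemokines are small secreted proteins that attract leukocytes, and chemokine receptors are the G protein-coupled receptors with which those cells sense them. The genes described here are the members of that system whose array name or current symbol begins with Ccl, Ccr, Cxcl, Cxcr, Cx3cl, Cx3cr, Xcl or Xcr followed by a digit. They number 57 of the 27573 named genes on the array, of which 37 are ligands and 20 are receptors. The tissue was the epididymal white fat pad of wild-type adult male C57BL/6J mice. All mice had eaten a purified high-fat diet with 30% of its energy as fat for 13 weeks, and its carbohydrate had a low glycemic index in the LGI group (8 mice) and a high glycemic index in the HGI group (9 mice). Glycemic index describes how strongly a carbohydrate raises blood glucose after a meal. Each array carried the RNA of 1 mouse in Cy5 against a Cy3 pool of all mice, so every value below is a log2 ratio of that mouse to the pool, and a mouse is named by its diet and replicate number. The labels give replicate numbers and no litter or cage, so a p-value here measures how far these samples spread, which may be partly technical.

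In adipose tissue, Ccl2 and its receptor Ccr2 are best known for recruiting blood monocytes, which become tissue macrophages, and this recruitment is a well-known response of visceral fat to overfeeding. Ligands are made by adipocytes, stromal cells, endothelium and resident leukocytes, whereas most receptors sit on leukocytes. A ligand can bind several receptors and a receptor several ligands, and a few atypical receptors take up chemokines without passing on the usual signal. In whole tissue, fewer cells of a type and less RNA per cell cannot be told apart.

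On the 17 arrays, 54.2% to 66.7% of gene spots were well above background in Cy5. HGI 9 and HGI 10 stood apart from the rest. Their profiles correlated with each other at r = 0.81 and with the other mice at -0.049 to 0.14, against 0.37 to 0.83 among the other 15. The mean ratio of 6 seminal vesicle genes was 1.43 in HGI 9 and 1.45 in HGI 10 and between -4.04 and -3.71 in the other mice, while 4 epididymis genes lay between -3.24 and -2.66 in every mouse. Values below are over all 17 mice unless stated, and results that moved without HGI 9 and HGI 10 are also given without them. All 8 adipocyte markers, among them Adipoq (adiponectin), Plin1 (perilipin) and Fabp4, were well above background in every mouse.

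A gene was tested where at least 1 probe was well above background in Cy5 on 8 or more of the 17 arrays. This held for 39 of the 57 genes, 26 ligands and 13 receptors. Of the 18 others, 11 were not well above background in any mouse. These were the ligands Ccl1, Ccl20, Ccl22, Cxcl3, Cxcl5, Cxcl11, Cxcl17 and Xcl1 and the receptors Ccr7, Ccr10 and Cxcr1. Another 7 passed background in a few mice, namely Ccl3, Cxcl2 and Ccr1 in 2, Ccl28 and Cxcr2 in 3, Cxcr5 in 4 and Ccr8 in 1. Both mice with Cxcl2 above background were HGI mice, which are too few to compare the diets. How often dim genes split this way was not counted over all genes.

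Detection was uneven along known ligand and receptor pairs. Xcr1 and Ccr6 were measured in all 17 mice, but Xcl1 and Ccl20, the ligands they are known for, were above background in none. Conversely, Ccl19 and Ccl21a, which guide cells through Ccr7, were measured in 17 mice and Ccr7 in none. Ccr8, the receptor of mouse Ccl8, was above background in 1 mouse, and Ccr1, a receptor of Ccl6 and Ccl9, in 2. Of 31 ligand and receptor pairs listed from known pairings, 15 had both partners tested.

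**Figure D1:**
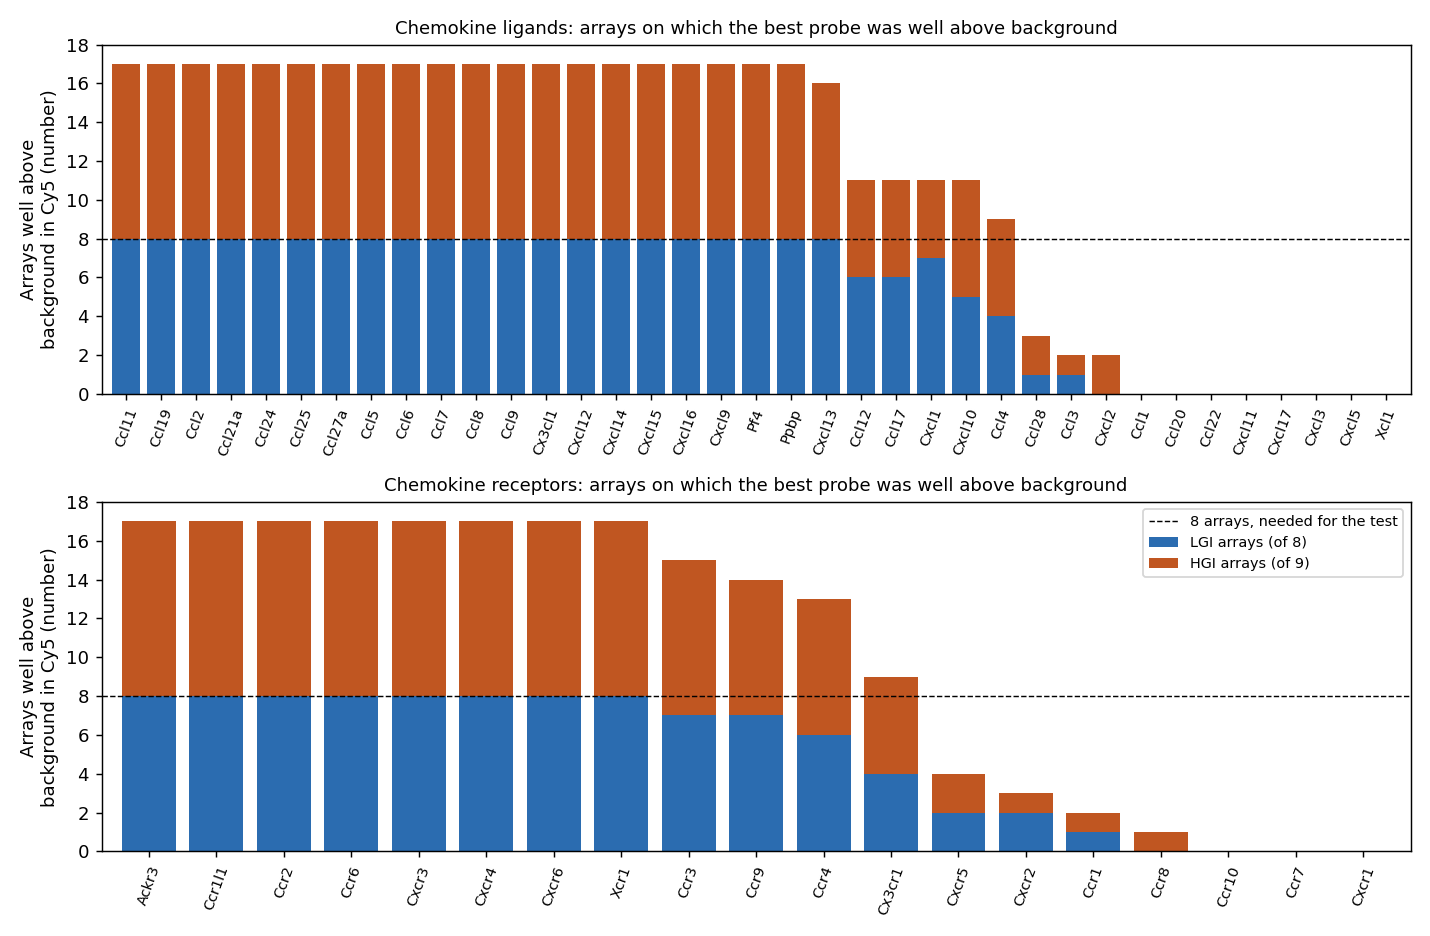
Number of arrays on which the best probe of each ligand (top) and receptor (bottom) was well above background in Cy5, stacked as LGI mice (of 8, blue) and HGI mice (of 9, orange). The dashed line marks the 8 arrays needed for the test, which all 26 tested ligands and the 12 tested receptors drawn reach, and 11 of the 56 genes drawn have no bar.

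The design asks whether the glycemic index of the diet altered these genes. No member passed the test, as no gene of the 18133 tested (0%) had an adjusted p under 0.05 in limma with Benjamini-Hochberg adjustment over all genes. At an unadjusted p under 0.05, 1404 genes or 7.74% differed, 3.97% higher and 3.78% lower in HGI. Among the members 2 of 39 did (5.13%), the ligand Ccl8 and the receptor Ccr6, both higher in HGI, a share no larger than that of all genes. Of the 26 ligands, 14 were higher in HGI and 12 lower, with a median difference of 0.049. Of the 13 receptors, 9 were higher and 4 lower, with a median difference of 0.065. Over all genes 52.6% were higher and the median difference was 0.0058. Ligands and receptors thus had medians close to each other. The median ratio of a single mouse varied with an SD of 0.11 over the ligands and 0.081 over the receptors. That SD is a spread of single mice and not the error of a group difference, and the medians were not tested.

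**Figure D2:**
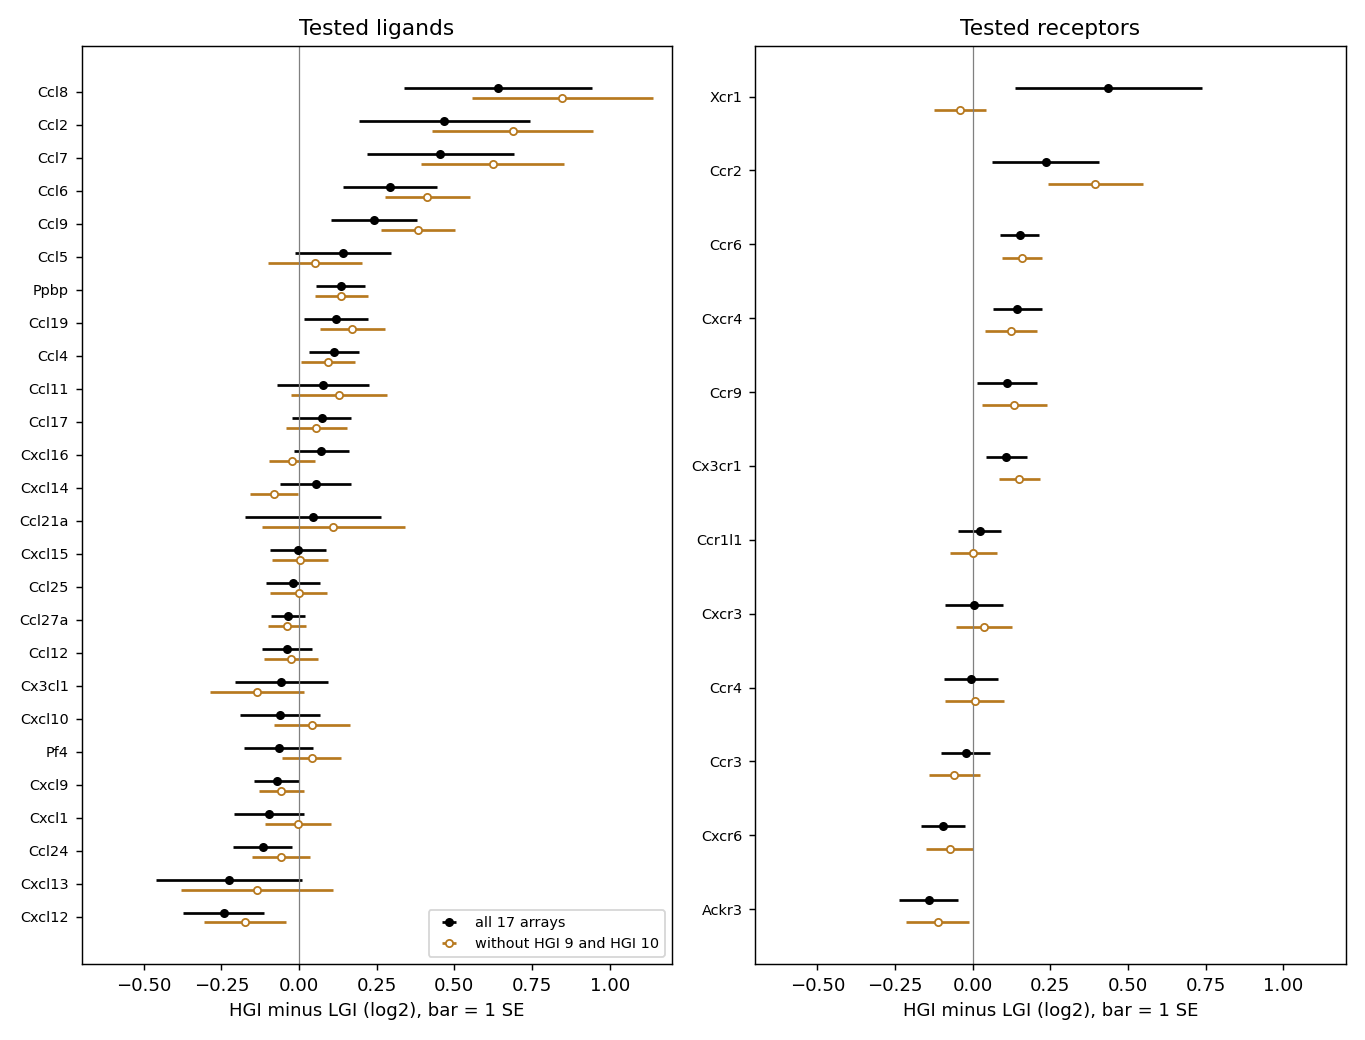
Difference HGI minus LGI (log2) of each tested ligand (left) and 12 of the 13 tested receptors (right) over all 17 arrays (black) and without HGI 9 and HGI 10 (open, brown), with bars of 1 SE from limma. Ccl8, Ccl2, Ccl7, Ccl6 and Ccl9 lie farthest to the right among the ligands in both, and Xcr1 lies at 0.44 with those mice and at -0.04 without them.

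The 5 ligands with the largest positive differences were Ccl8, Ccl2, Ccl7, Ccl6 and Ccl9. They do not share 1 receptor, as Ccl2 and Ccl7 bind Ccr2, Ccl6 and Ccl9 bind Ccr1, and mouse Ccl8 binds Ccr8. Ccl8 ranged from -0.96 to -0.12 (median -0.54) in LGI and from -0.98 to 1.93 (median -0.26) in HGI. The high HGI values were 1.93 in HGI 4, 0.89 in HGI 3 and 0.84 in HGI 2, and the other 6 HGI mice lay within or close to the LGI range. The difference was 0.64 ± 0.30 (SE; 8 and 9 mice; limma adjusted p = 0.643), with 7 of 9 HGI mice above the LGI median.

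Ccl2, the principal ligand of Ccr2, ranged from -0.60 to 0.84 (median -0.30) in LGI and from -0.62 to 1.72 (median 0.28) in HGI. It was 1.72 in HGI 3, 0.96 in HGI 4 and 0.89 in HGI 2, and the next highest mouse was LGI 7 at 0.84. The difference was 0.47 ± 0.28 (SE; limma adjusted p = 0.716), and the groups overlapped along most of their range.

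Ccl7, a further ligand of Ccr2, ranged from -0.69 to 0.73 (median -0.32) in LGI and from -0.52 to 1.27 (median -0.08) in HGI. The same mice were highest, HGI 3 at 1.27, HGI 4 at 0.96 and HGI 2 at 0.74, followed by LGI 7 at 0.73. The difference was 0.45 ± 0.24 (SE; limma adjusted p = 0.668). A second Ccl7 probe gave 0.35 ± 0.16 (SE).

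Ccl6, a myeloid attractant that binds Ccr1, ranged from -0.50 to 0.27 (median -0.09) in LGI and from -0.45 to 0.70 (median 0.15) in HGI, a difference of 0.29 ± 0.15 (SE; limma adjusted p = 0.668). Ccl9, its relative and also a Ccr1 ligand, ranged from -0.27 to 0.40 (median 0.0035) in LGI and from -0.25 to 0.80 (median 0.28) in HGI, a difference of 0.24 ± 0.14 (SE; limma adjusted p = 0.710). For both genes HGI 2, HGI 3 and HGI 4 were the highest mice, at 0.46 to 0.70 for Ccl6 and 0.63 to 0.80 for Ccl9, and for both 4 of 9 HGI mice lay above every LGI mouse.

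**Figure D3:**
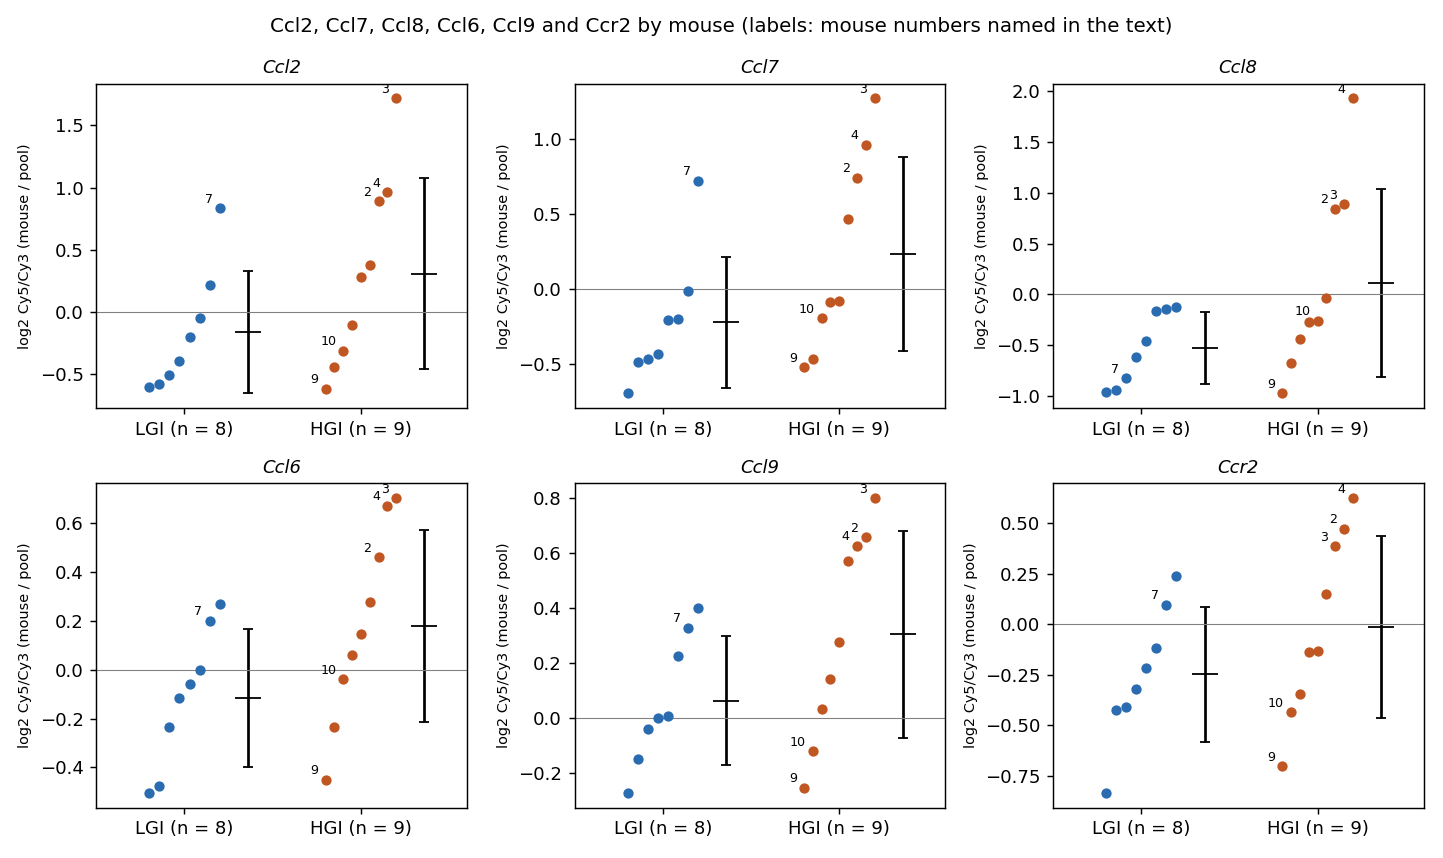
log2 ratio of each mouse to the pool for Ccl2, Ccl7, Ccl8, Ccl6, Ccl9 and Ccr2 in LGI (8 mice, blue) and HGI (9 mice, orange), points sorted by value, with the group mean and 1 SD in black. HGI 2, HGI 3 and HGI 4 are the highest HGI mice in all 6 panels, and HGI 9 is the lowest HGI mouse.

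These ligands sit in neighbouring blocks of the genome. Ccl2, Ccl7, Ccl11, Ccl12, Ccl8 and Ccl1 follow one another with no coding gene between them, and Ccl5, Ccl9, Ccl6, Ccl3 and Ccl4 form another such run. The neighbours did not share one pattern. Ccl12, another mouse ligand of Ccr2, was -0.45 in HGI 2, 0.02 in HGI 3 and 0.08 in HGI 4, and its difference was -0.04. Ccl5, next to Ccl9, was -0.72, -0.32 and -0.09 in those mice. Ccl11, between Ccl7 and Ccl12, was 0.44, 0.87 and 0.55, its highest values over all 17 mice.

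Promoter sequence is shown for the 4 ligands with the smallest p-values that the RefSeq promoter table holds, to let a reader set the upstream sequence of genes that share a pattern of mice (Ccl8, Ccl6, Ccl9) beside that of a gene that does not (Cxcl12). The windows are the 250 bases before the annotated start in build GRCm38.p6, printed 5′ to 3′ on the gene's strand, and 43 of the 57 members had one. Capitals mark matches on either strand to TATAAA (the TATA box), to the AP-1-like motif TGANTCA or to the GC box GGGCGG. The GAS-like motif TTCNNNGAA was also searched on both strands and had no match in these windows. Ccl8 lies at chr11:82114935-82115184 on the + strand, Ccl6 at chr11:83593088-83593337 and Ccl9 at chr11:83578637-83578886 on the - strand, and Cxcl12 at chr6:117168285-117168534 on the + strand.
Ccl8: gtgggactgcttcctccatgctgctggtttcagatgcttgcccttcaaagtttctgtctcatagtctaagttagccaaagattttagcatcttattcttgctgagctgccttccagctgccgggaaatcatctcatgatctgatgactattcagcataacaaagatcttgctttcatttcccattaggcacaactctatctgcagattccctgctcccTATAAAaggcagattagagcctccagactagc
Ccl6: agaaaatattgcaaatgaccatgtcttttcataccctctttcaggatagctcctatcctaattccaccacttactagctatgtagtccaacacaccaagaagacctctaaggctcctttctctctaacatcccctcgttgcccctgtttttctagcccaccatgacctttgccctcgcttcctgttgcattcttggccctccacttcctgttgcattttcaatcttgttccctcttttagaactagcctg
Ccl9: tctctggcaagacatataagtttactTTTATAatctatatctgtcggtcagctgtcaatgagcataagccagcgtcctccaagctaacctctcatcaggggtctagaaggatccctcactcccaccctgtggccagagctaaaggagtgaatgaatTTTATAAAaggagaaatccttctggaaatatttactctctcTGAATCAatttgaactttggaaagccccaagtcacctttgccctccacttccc
Cxcl12: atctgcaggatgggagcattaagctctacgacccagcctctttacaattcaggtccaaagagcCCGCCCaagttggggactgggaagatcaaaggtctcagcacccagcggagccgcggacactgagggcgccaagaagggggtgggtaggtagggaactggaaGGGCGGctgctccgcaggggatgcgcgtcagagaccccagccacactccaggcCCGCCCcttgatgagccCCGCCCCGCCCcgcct

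Ccl8 holds 1 TATAAA, 32 bases before the start, and Ccl6 holds none of the motifs. Ccl9 holds TGAATCA 53 bases before the start, and TATAAA on 1 strand or the other in 3 places, of which 2 overlap. The Cxcl12 window holds GGGCGG on either strand in 5 places, of which 2 overlap, and no TATA box. The letters TATAAA occur in 12.4% of all 32851 RefSeq promoter windows of this length, TGANTCA in 6.75% and GGGCGG in 32.7%. Of the 43 member genes with a window, 14 held TATAAA, 6 TGANTCA and 8 GGGCGG. A member gene counted once where any of its windows matched, so member counts are per gene and the shares of all windows are per window. The GAS-like motif occurs in 4 of the 43 genes and in 7.02% of all windows. These are matches of letters and not measured binding sites.

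The other CC ligands had smaller differences. Ccl5, which attracts T cells and monocytes, ranged from -1.14 to 0.03 (median -0.52) in LGI and from -0.80 to 0.16 (median -0.32) in HGI. Its difference was 0.14 ± 0.15 (SE; limma adjusted p = 0.846), 0.05 without HGI 9 and HGI 10, and a second probe gave 0.26 ± 0.15 (SE). Ccl11 (eotaxin), which attracts eosinophils through Ccr3, ranged from -0.22 to 0.43 (median 0.09) in LGI and from -0.45 to 0.87 (median 0.11) in HGI, a difference of 0.08 ± 0.15 (SE; limma adjusted p = 0.923). The remaining CC ligands had differences from -0.12 for Ccl24, another Ccr3 ligand, to 0.12 for Ccl19. Ccl21a, measured by a probe that near-identical gene copies can share, varied widely between mice, from -0.85 in LGI 8 to 0.87 in LGI 9, around a difference of 0.04. Ccl27a also has near-identical copies, and its values are uncertain in the same way.

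Among the CXC ligands, Cxcl12, a stromal chemokine that retains leukocytes and progenitors through Cxcr4, had the largest negative difference. It ranged from -0.20 to 0.69 (median 0.19) in LGI and from -0.41 to 0.42 (median -0.10) in HGI. LGI 2 was highest at 0.69 and HGI 6 next at 0.42, and 4 of 9 HGI mice lay below every LGI mouse. The difference was -0.24 ± 0.13 (SE; limma adjusted p = 0.674). A second Cxcl12 probe, against another transcript accession, gave -0.02 ± 0.10 (SE), so the probes did not give the same difference. Among the first 8 arrays scanned the difference was -0.54, and among the later 9 it was 0.03.

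Cxcl13, the B cell attractant, was 0.98 in HGI 7 and 0.81 in LGI 2 and as low as -0.98 in HGI 4, a difference of -0.23 ± 0.23 (SE; limma adjusted p = 0.838). The interferon-induced Cxcr3 ligands Cxcl9 and Cxcl10 differed by -0.07 and -0.06, and Cxcl1, a neutrophil attractant, by -0.10. Pf4 (platelet factor 4, Cxcl4) ranged from -0.21 to 0.42 (median 0.13) in LGI and from -0.42 to 0.52 (median 0.07) in HGI, a difference of -0.07 ± 0.11 (SE; limma adjusted p = 0.911). Ppbp (Cxcl7), another platelet chemokine and a genomic neighbour of Pf4, differed by 0.13 ± 0.08 (SE; limma adjusted p = 0.714), with 8 of 9 HGI mice above the LGI median. Cxcl15 and its second probe had opposite signs, -0.0020 and 0.07.

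Cx3cl1 (fractalkine), a membrane-tethered ligand of endothelial and epithelial cells, ranged from -0.95 to 0.61 (median -0.47) in LGI and from -0.75 to -0.10 (median -0.51) in HGI. LGI 9 stood alone at 0.61, and the next LGI mouse was at -0.33. The difference was -0.06 ± 0.15 (SE; limma adjusted p = 0.947), and without LGI 9 it was 0.08. A second Cx3cl1 probe was not well above background in any mouse.

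Among the receptors, Ccr6, which guides lymphocytes and dendritic cells to Ccl20, had the smallest p. It ranged from -0.23 to 0.12 (median -0.09) in LGI and from -0.09 to 0.19 (median 0.10) in HGI, with 8 of 9 HGI mice above the LGI median and 4 of 9 above every LGI mouse. The difference was small, at 0.15 ± 0.06 (SE; limma adjusted p = 0.592). It lay between 0.13 and 0.18 when each mouse was left out in turn.

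Ccr2, the monocyte receptor of Ccl2 and Ccl7, ranged from -0.84 to 0.24 (median -0.27) in LGI and from -0.70 to 0.62 (median -0.13) in HGI. HGI 4 at 0.62, HGI 2 at 0.47 and HGI 3 at 0.38 were highest, the mice that were also highest for Ccl2 and Ccl7. Ccl12, another ligand of Ccr2, was instead highest in LGI 4, HGI 6 and HGI 4 and lowest in HGI 2. The difference was 0.24 ± 0.17 (SE; limma adjusted p = 0.768), and a second probe gave 0.10 ± 0.10 (SE).

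Cx3cr1, the fractalkine receptor of monocytes and macrophages, ranged from -0.25 to 0.11 (median 0.02) in LGI and from -0.12 to 0.29 (median 0.05) in HGI, a difference of 0.11 ± 0.07 (SE; limma adjusted p = 0.721), and was well above background in 9 mice. A second Cx3cr1 probe was well above background in 5 mice and was not tested. Cxcr4, the receptor of Cxcl12, ranged from -0.37 to 0.30 (median -0.02) in LGI and from -0.04 to 0.21 (median 0.10) in HGI, a difference of 0.14 ± 0.08 (SE; limma adjusted p = 0.681). The HGI mice lay inside the LGI range, and 8 of 9 were above its median. A second Cxcr4 probe gave 0.09 ± 0.07 (SE).

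Ackr3 (Cxcr7), an atypical receptor that takes up Cxcl12, ranged from -0.20 to 0.55 (median 0.28) in LGI and from -0.13 to 0.20 (median 0.02) in HGI. Each of the 9 HGI mice was under the LGI median, but LGI 2, LGI 4 and LGI 5 were at -0.04, -0.17 and -0.20, and the groups overlapped. The difference was -0.14 ± 0.10 (SE; limma adjusted p = 0.746). The other receptors differed by -0.10 for Cxcr6 to 0.11 for Ccr9, and the 2 Ccr3 probes had opposite signs at -0.02 and 0.10.

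Xcr1, the receptor of cross-presenting dendritic cells, had the largest receptor difference, 0.44 ± 0.30 (SE; limma adjusted p = 0.755). It was 1.72 in HGI 9 and 1.30 in HGI 10 and between -0.83 and -0.24 in the other 15 mice. Without these mice the difference was -0.04 ± 0.08 (SE). The seminal vesicle genes were high in the same mice, as given above. The dendritic cell markers Flt3, Zbtb46 and Itgae were not, with a mean of -0.03 in HGI 9 and -0.02 in HGI 10 against -0.11 to 0.26 elsewhere. Itgax, counted here in the macrophage list, was highest in HGI 10 (1.54) and HGI 9, with LGI 8 next at 1.37. The part of dendritic cell or seminal vesicle RNA in the Xcr1 values was not tested. A second Xcr1 probe was not well above background in any mouse.

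**Figure D4:**
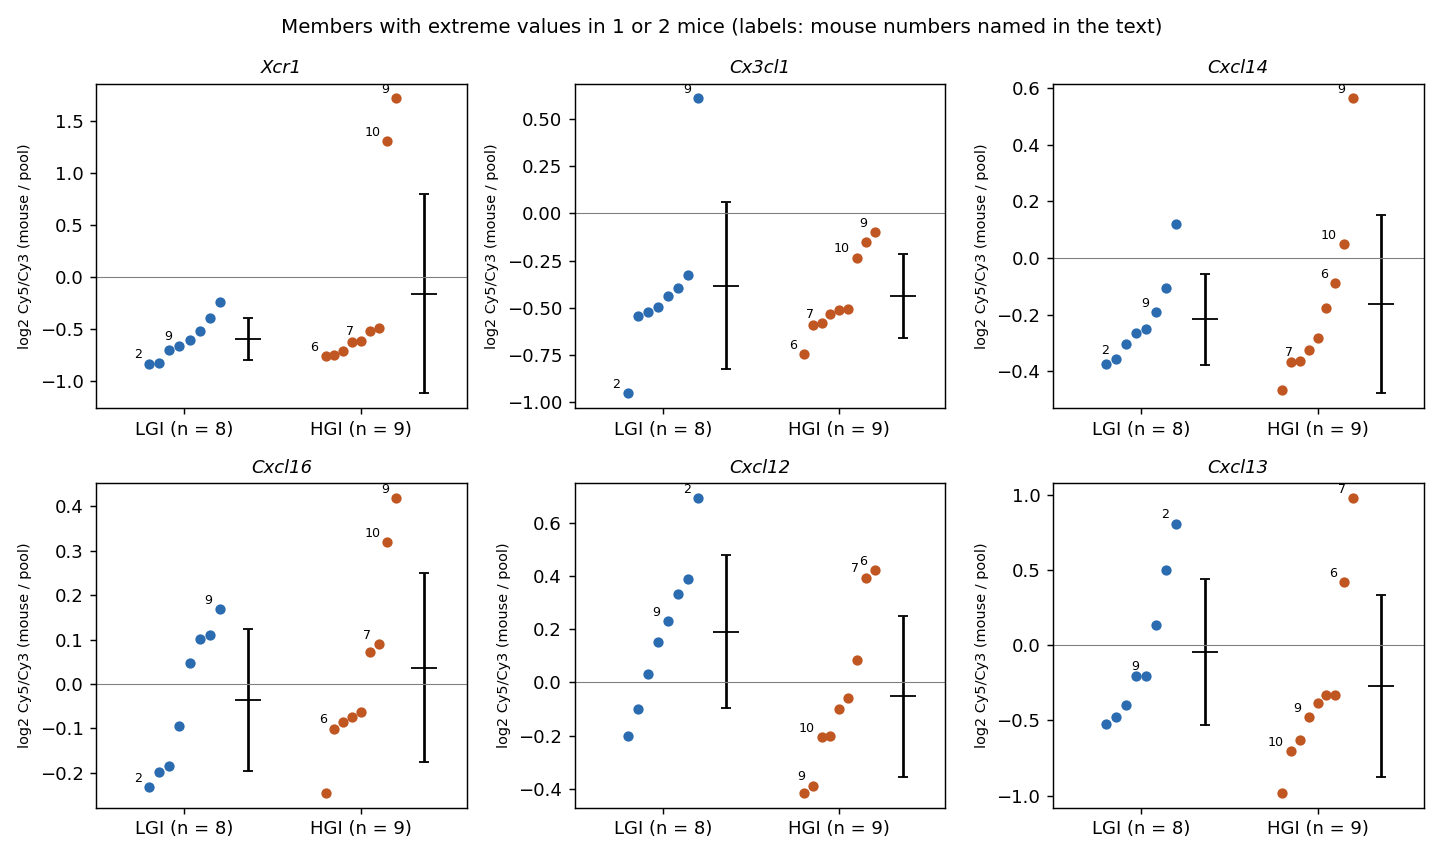
log2 ratio of each mouse to the pool for Xcr1, Cx3cl1, Cxcl14, Cxcl16, Cxcl12 and Cxcl13 in LGI (8 mice, blue) and HGI (9 mice, orange), points sorted by value, with the group mean and 1 SD in black. Xcr1 and Cxcl16 are highest in HGI 9 and HGI 10, Cxcl14 in HGI 9 at 0.56, Cx3cl1 in LGI 9 at 0.61 and Cxcl13 in HGI 7 at 0.98.

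Further ligands were highest in the mice that stood apart. Cxcl16, which is membrane-bound or shed and binds Cxcr6, differed by 0.07 and was 0.42 in HGI 9 and 0.32 in HGI 10, and between -0.25 and 0.17 in the others. A second Cxcl16 probe gave a difference of 0.15 ± 0.08 (SE) over all mice. Cxcl14 differed by 0.05 and was 0.56 in HGI 9, with LGI 5 next at 0.12. The differences turned without HGI 9 and HGI 10, to -0.02 for Cxcl16 and -0.08 for Cxcl14. Conversely, Ccl2, Ccl8, Ccl6, Ccl7, Ccl9, Ccr2 and Pf4 all had their lowest HGI value in HGI 9.

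Without HGI 9 and HGI 10, the members therefore read differently. Over these 15 mice, 8 of the 39 members (20.5%) had an unadjusted p under 0.05, all of them higher in HGI, where 7.79% of all genes had one and 5.04% were higher. The 5 ligands among them were Ccl9, Ccl6, Ccl8, Ccl7 and Ccl2, and the 3 receptors were Ccr2, Ccr6 and Cx3cr1. Neither a member nor another gene had an adjusted p under 0.05 in limma (0%), and the smallest among the members was 0.511 for Ccl9. The differences were 0.85 ± 0.29 (SE) for Ccl8, 0.69 ± 0.26 for Ccl2, 0.62 ± 0.23 for Ccl7, 0.41 ± 0.14 for Ccl6, 0.38 ± 0.12 for Ccl9 and 0.39 ± 0.15 for Ccr2. The value for Ccl8 was the largest positive difference of all 18133 genes over these mice. The medians were 0.041 for the ligands and 0.037 for the receptors, against 0.00022 for all genes. Over all 17 mice they were 0.049 and 0.065, so the receptor median was lower without these mice. The sign turned for 7 of the 39 members, Xcr1, Cxcl14, Cxcl16, Pf4 (0.04), Cxcl10 (0.04), Cxcl15 (0.0028) and Ccr4 (0.0071). Turned signs were not counted over all genes. HGI 9 and HGI 10 were set aside for their profiles over all genes.

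Single mice carried much of the largest differences. HGI 3 had the highest value of all 17 mice for 9 of the 26 ligands and for none of the 13 receptors. The same count over all genes was not made, so it is not known whether this is particular to the members. Without HGI 3, the difference was 0.29 for Ccl2, 0.32 for Ccl7, 0.54 for Ccl8 and -0.01 for Ccl11, against 0.47, 0.45, 0.64 and 0.08 with all mice. Without HGI 4, Ccl8 was at 0.41, Ccl2 at 0.39, Ccl7 at 0.36 and Ccr2 at 0.16. With both left out, Ccl8 was at 0.27, Ccl7 at 0.20, Ccl2 at 0.17, Ccl6 at 0.15, Ccl9 at 0.12 and Ccr2 at 0.09. All 6 kept their sign, and Ccl11 was at -0.08. With both left out, 1 member of 39, Ccr9, had an unadjusted p under 0.05, against 7.36% of all genes. Without HGI 3 alone (7.33% of all genes) and without HGI 4 alone (7.04% of all genes), 1 member had one, Ccr6 in each case.

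An LGI mouse shifted the differences the other way. LGI 7 was the highest LGI mouse for Ccl2 and Ccl7, and without it these differed by 0.61 and 0.59. Then 5 of the 39 members had an unadjusted p under 0.05, Ccr6, Ccl7, Cxcr4, Ccl2 and Ccl6, against 8.79% of all genes, and 3 genes (0.0165%), none of them a member, had an adjusted p under 0.05 in limma. The scan order, in which the first 8 and the later 9 arrays each hold both diets, was also looked at. Among the first 8, 3 members had an unadjusted p under 0.05 (4.08% of all genes), Cxcl12 and Cxcl13 lower and Ccl4, which attracts monocytes and T cells, higher in HGI. Among the later 9, 2 did (3.15% of all genes), Ccl6 and Ppbp, both higher. Counted over members, the mouse whose removal moved the difference most was HGI 9 for 7 of the 39, and HGI 3, LGI 2 and LGI 8 for 4 each. This too was not counted over all genes.

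**Figure D5:**
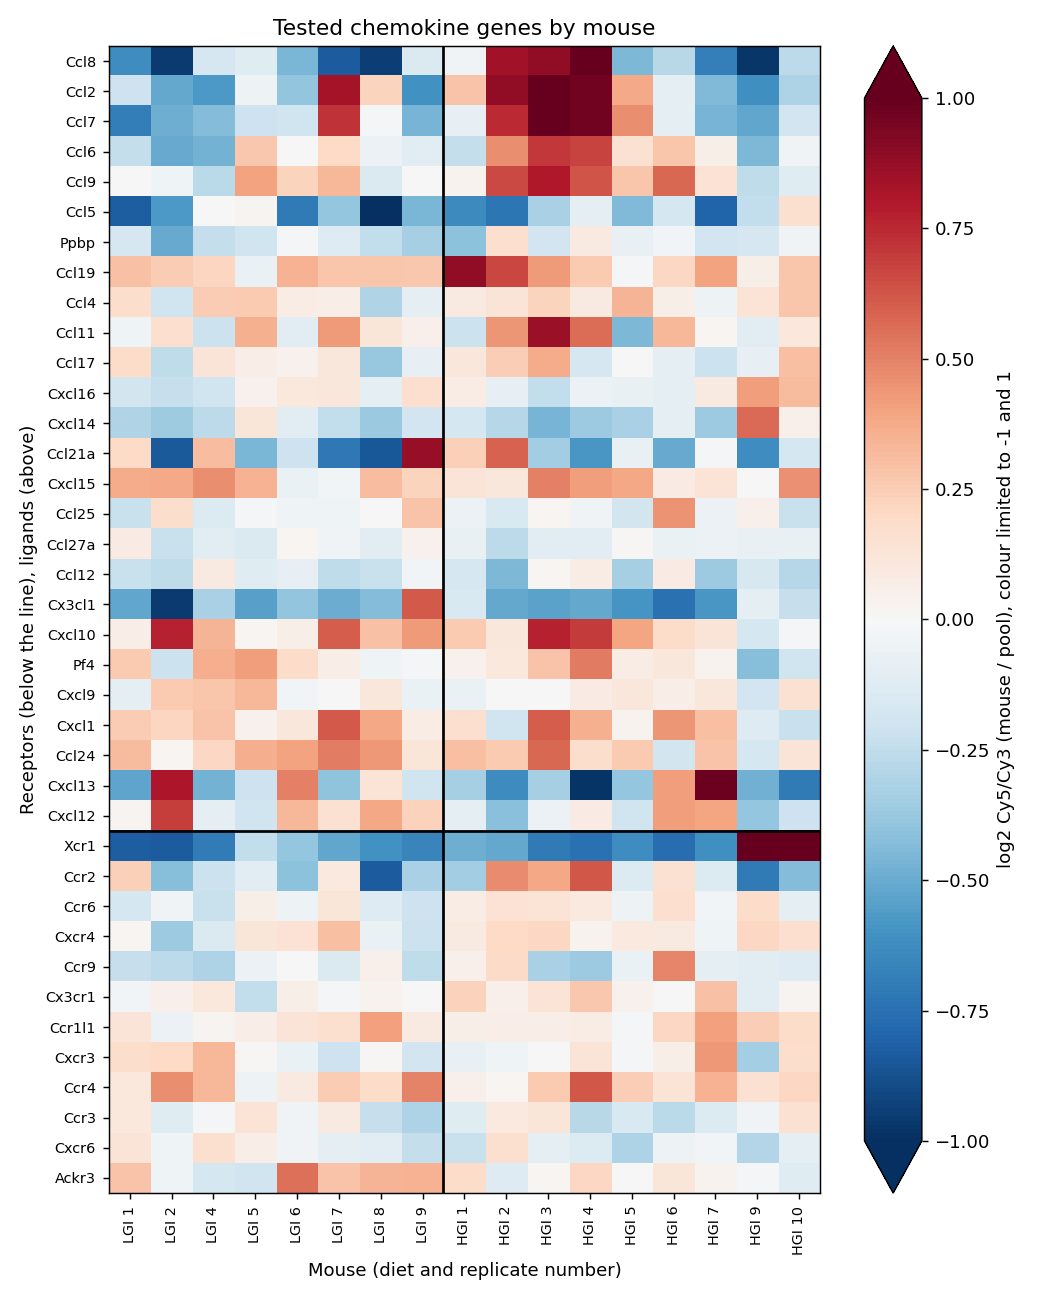
log2 ratio to the pool of the 26 tested ligands (above the line) and 12 of the 13 tested receptors (below it), each sorted by the difference HGI minus LGI, in the 8 LGI mice (left) and 9 HGI mice (right). Colours end at -1 and 1, and the red block at the top is Ccl8, Ccl2, Ccl7, Ccl6 and Ccl9 in HGI 2, HGI 3 and HGI 4.

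Macrophage markers were set beside these ligands, since macrophages both make and answer chemokines. All 12 were tested, 11 were higher in HGI and 1 lower, 2 of them at an unadjusted p under 0.05 (7.74% of all genes) and none after adjustment, with a median difference of 0.12. Without HGI 9 and HGI 10, an alternative added for these and the following lists after their values were seen, 10 were higher and 2 lower, 3 at an unadjusted p under 0.05 (7.79% of all genes), with a median of 0.16. Those 2 were Gpnmb, a lysosomal membrane protein of lipid-laden macrophages, at 0.69 ± 0.18 (SE; limma adjusted p = 0.520) and Mpeg1, a macrophage perforin-like protein, at 0.39 ± 0.11 (SE; limma adjusted p = 0.520). The mean over the list ranged from -0.26 to 0.0088 in LGI and from -0.13 to 0.50 in HGI. It was highest in HGI 4 (0.50), HGI 3 (0.26), HGI 6 (0.19) and HGI 2 (0.18), 3 of which were the mice with the high Ccl2, Ccl7 and Ccl8 values. In LGI 7, which had high Ccl2 and Ccl7, the list was at -0.01, near the top of the LGI range. The part of macrophage RNA in the ligand differences was not tested.

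The other leukocyte lists were small. Of 9 tested T and NK cell markers 5 were higher and 4 lower (median 0.0012), of 4 B cell markers 2 were higher and 2 lower (median 0.0057), and the 3 dendritic cell markers were lower (median -0.06). Without HGI 9 and HGI 10, 1 dendritic cell marker was higher and 2 were lower (median -0.015). Of the neutrophil markers 3 were tested, 2 higher and 1 lower, and their median of 0.12 was close to that of the macrophage list. Their mean was 0.43 in both HGI 2 and HGI 4 and 0.22 in HGI 3, and as high as 0.42 in LGI. Of the eosinophil and mast cell markers 3 were tested, 2 higher and 1 lower, while Epx, Prg2 and Siglecf, the eosinophil genes, were not. No marker of these lists had an unadjusted p under 0.05 over all 17 mice, and without HGI 9 and HGI 10 the neutrophil gene S100a8 had one, at 0.40 ± 0.15 (SE; limma adjusted p = 0.547). The part of neutrophil RNA in the ligand differences was not tested. Among non-leukocyte lists, the 5 mesothelial markers were all lower in HGI, 3 at an unadjusted p under 0.05 (7.74% of all genes; median -0.22), and 6 of 8 adipocyte markers were lower, 1 at that threshold (median -0.13). Without HGI 9 and HGI 10 these counts were the same, with medians of -0.24 and -0.11. The adipocyte marker at that threshold was Plin1 over all 17 mice and Fabp4 without those mice, so neither was in both. The adipocyte mean was -0.30 in HGI 9 and -0.25 in HGI 10, and -0.21 to 0.12 in the other HGI mice. Cxcl12 was highest in LGI 2, HGI 6, LGI 8 and HGI 7, and of these LGI 2, LGI 8 and HGI 7 also had the high mesothelial means of 0.53, 0.52 and 0.44, while HGI 6 was at -0.07. The part of mesothelial RNA in the Cxcl12 values was not tested.

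Ligand and receptor of a pair were compared across the 15 mice without HGI 9 and HGI 10. Of the 15 testable pairs, 11 correlated positively, with a median r of 0.33, and none had an adjusted p under 0.05 by permutation (100000 permutations, two-sided, adjusted over the 15 pairs). Mice were shuffled without regard to diet, so a diet difference common to both genes of a pair enters its p-value. Ccl2 and Ccr2 gave Pearson r = 0.61 (permutation p = 0.0164, adjusted p = 0.0954) and Spearman rho = 0.61 (permutation p = 0.0176, adjusted p = 0.241). Without HGI 3 and HGI 4, the mice farthest out in Ccl2, r was 0.40, so the relation rests in part on them. Within the LGI mice r was 0.20 and within the 7 HGI mice 0.66, and within the first 8 and the later 9 arrays scanned, less the mice left out, it was 0.94 and 0.52.

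Ccl7 and Ccr2 gave r = 0.60 (permutation p = 0.0191, adjusted p = 0.0954) and rho = 0.48 (permutation p = 0.0744, adjusted p = 0.251), and r was 0.34 without HGI 3 and HGI 4. For this pair r was 0.029 within the LGI mice and 0.76 within the 7 HGI mice. Ccl12, the other Ccr2 ligand tested, gave r = 0.12 with Ccr2 (permutation p = 0.664, adjusted p = 0.767). Ccl24 and Ccr3 gave r = 0.60 (permutation p = 0.0160, adjusted p = 0.0954) and rho = 0.56 (permutation p = 0.0322, adjusted p = 0.241), and r was 0.45 without HGI 3 and HGI 6. Cxcl12 and Cxcr4 ran oppositely, at r = -0.54 (permutation p = 0.0386, adjusted p = 0.145) and rho = -0.44 (permutation p = 0.100, adjusted p = 0.251), and r was -0.19 without HGI 2 and LGI 2. Cx3cl1 and Cx3cr1 showed r = 0.0054 (permutation p = 0.982, adjusted p = 0.982) and rho = 0.10 (permutation p = 0.714, adjusted p = 0.860).

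Genes around the chemokine system, taken from fixed lists, showed few differences and none after adjustment. The 2 other chemoattractant ligands, Mif and Rarres2 (chemerin), differed by -0.14 ± 0.11 (SE; limma adjusted p = 0.779) and -0.14 ± 0.08 (SE; limma adjusted p = 0.719). They differed by -0.23 and -0.09 without HGI 9 and HGI 10. The 5 tested atypical and related receptors that are not members were all higher in HGI, with a median of 0.057 and none at an unadjusted p under 0.05. The atypical receptor Ackr3, counted among the members, was lower at -0.14. The mean of the 5 was highest in HGI 9 (0.27) and HGI 10 (0.26), and without these mice 2 were higher and 3 lower, with a median of -0.0052. Ackr1, which binds chemokines on venules and red cells, differed by 0.15 ± 0.08 (SE; limma adjusted p = 0.662) and Ackr4 by 0.06 ± 0.08 (SE; limma adjusted p = 0.866), and without these mice by 0.08 and -0.01.

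Of 19 tested signal transduction genes, 10 were higher and 9 lower, with a median of 0.0017. Only the G protein subunit gene Gng2 had an unadjusted p under 0.05, at 0.35 ± 0.11 (SE; limma adjusted p = 0.520), and Gnai2, the main G protein alpha subunit behind chemokine receptors in leukocytes, differed by -0.19 ± 0.10 (SE; limma adjusted p = 0.672). HGI 9 and HGI 10 were the highest mice for Gng2 and the lowest for Gnai2, and without them the differences were 0.27 and -0.09. Over those 15 mice 13 of the 19 genes were higher and 6 lower, with a median of 0.028. Of 7 tested genes that induce chemokines or report their induction, 3 were higher and 4 lower, and Nfkbia, a feedback inhibitor of NF-kappaB, differed by 0.13 ± 0.07 (SE; limma adjusted p = 0.696) and Irf1 by -0.11 ± 0.07 (SE; limma adjusted p = 0.740). Without HGI 9 and HGI 10, 4 were higher and 3 lower, and Irf1 was at -0.05. Il1b, Il6 and Ifng were too dim to be tested. Of 5 proteases known to trim chemokines, 3 were higher and 2 lower, and without HGI 9 and HGI 10, 2 were higher and 3 lower. Mmp12, the macrophage elastase, differed by 0.47 ± 0.13 (SE; limma adjusted p = 0.520). It was well above background in 2 of 8 LGI and 7 of 9 HGI mice and so entered the test mainly through the group in which it was higher, which makes its difference a description. Mmp2 differed by 0.09 ± 0.10 (SE; limma adjusted p = 0.843), and by 0.19 without HGI 9 and HGI 10.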

How the data were processed

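RNA of 17 mice was measured on 2-colour Agilent arrays, 500 ng of it labelled per mouse. The scanner files hold spot intensities, quality flags and processed signals, as deposited, made with Agilent Feature Extraction (9.1.3.1 per the file headers, 9.5.1.1 per the submitters' processing notes). The authors also deposited log2 values, whose normalization is not given in the sources used here, and these served as an alternative. The authors excluded 2 of 19 arrays in quality control, per the labels.

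Intensities were corrected by normexp (offset 50, which draws ratios of dim probes towards 0), normalized by loess within arrays without control and flagged spots, and averaged per probe, with limma 3.58.1 in R 4.3.3. Of 41174 probes, 25514 were well above background in Cy5 on at least 8 arrays. The brightest such probe stood for a gene (18133 genes). HGI and LGI were compared by lmFit and eBayes with Benjamini-Hochberg adjustment. In data simulated for this comparison, 86% of genes changed by 0.5 (log2) and 99% of those changed by 1 were recovered, and 10 of 195 calls were false. The changed genes were picked at random, with independent normal noise of each gene's own spread and no mice that stood apart. These shares need not hold for members as variable as Ccl8, Ccl2 and Ccl7, whose SD in HGI was 0.93, 0.77 and 0.65. Members, lists and the genes described (smallest p, brightest, most moved by leaving out a mouse, and 4 ligand-receptor pairs) were chosen with earlier results of these data known. One tested receptor is counted among the members but is not reported here by itself. Of the members, 56 were named through accessions. No spot of a member was saturated. Replicate numbers do not pair the mice: deviations of mice with the same number correlated at -0.38 to 0.26. The alternatives were other background corrections, normalizations, filters, probe rules and weights, the scan group (first 8 or later 9) as a block, and mice left out.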

Additional observations from a re-analysis of the deposited data

Results flagged for a closer look

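Within a diet group, 7 of the 78 groups of member values (8.97%) had a highest or lowest mouse whose gap to the next was above Dixon's critical value, where chance gives about 5%. Cx3cl1 was 0.611 in LGI 9, and the next LGI mouse was at -0.33. Cxcl14 was 0.563 in HGI 9, and the next HGI mouse was at 0.049. Cx3cr1 was lowest in LGI 5 at -0.248 (next -0.029), Ccl19 was lowest in the same mouse at -0.0702 (next 0.21), and Ccl27a was lowest in HGI 2 at -0.262 (next -0.11). Ccl25 was highest in HGI 6 at 0.449 (next 0.051) and Ccr1l1 in LGI 8 at 0.413 (next 0.16). Ccl2, Ccl7 and Ccl8, whose high values fall in 3 HGI mice, were not among them.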

How the results depend on the processing

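Over 37 alternatives, Ccl2, Ccl6, Ccl7, Ccl8, Ccl9, Ccr2, Ccr6, Cx3cr1 and Ackr3 kept the sign of their difference in every one that measured them. Ccl8 ranged from 0.27 to 0.92, Ccl2 from 0.17 to 0.75, Ccl7 from 0.17 to 0.66 and Ccr6 from 0.086 to 0.32, and their limma adjusted p stayed at or above 0.294. The ligand median ranged from -0.024 to 0.094 and the receptor median from 0.018 to 0.13. The number of genes past an adjusted p of 0.05 was 1 from Cy5 intensities alone, 1 with array weights and 0 to 3 when each mouse was left out, 3 without LGI 7; no other alternative gave one.

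Reversed signs were as follows. Cx3cl1 was 0.031 from the processed signals, 0.0067 without HGI 9, HGI 10 and LGI 9, and from -0.14 to 0.085 (without LGI 9) when each mouse was left out. Cxcr4 was -0.072 in the authors' deposited values. Ccl11 was -0.11 among the first 8 scanned, -0.076 without HGI 3 and HGI 4 and from -0.0092 (without HGI 3) to 0.16 when each mouse was left out. Cxcl12 was 0.026 among the later 9. Without HGI 9 and HGI 10, Xcr1 was -0.040 and Pf4 0.040, and without LGI 9 as well they were -0.049 and 0.020. With the replicate number as a block over the 14 mice that share numbers, no gene passed, the medians were -0.024 and 0.070, Ccl5 was -0.028 and Ccl11 -0.0091. The same 14 mice without the block gave the same values, and mice 4 and 9 alone correlated best with their own number. For each reversal the cause was not tested, except where mice were left out.

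The number of arrays limits the precision, and the 18 untested members have no difference here.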
